A study of Mus musculus with 6 samples.

Results

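The genes of respiratory complex I were examined in the transcriptome of neural stem cells (NSCs) cultured from mice with and without Tsc2. Members were all gene names of the table that begin with Nduf and continue with the letter a, b, c, s, v, ab or af, a number and at most 1 further letter, and Ndufa4l2, a paralogue of Ndufa4, was left out. The rule found 46 of 24972 names, of which 38 are structural subunits and 8 (Ndufaf1 to Ndufaf8) are assembly factors. They were chosen by name, although earlier results of these data were known when the choice was made. All 46 had a mean of at least 10 normalised counts over the libraries and were tested.

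Poly(A) RNA was sequenced from 6 primary NSC cultures, 3 of Tsc2 wt/wt genotype and 3 labelled Tsc2 mut/mut. They came from the V-SVZ, the ventricular-subventricular zone along the lateral ventricles in which these stem cells reside. Tsc2 encodes tuberin, a brake on the growth kinase complex mTORC1, and the comparison asks which transcripts differ when it is mutated. Controls and mutants alike carried a Nestin-CRE-ERT2 transgene, in which the Nestin promoter drives a Cre recombinase that tamoxifen activates, and a CAG-tdTomato reporter (RFP), and pups of both were injected with tamoxifen and killed a week later. The mutants carried a conditional Tsc2 allele on both chromosomes. The NSCs were kept in adherent culture in the presence of EGF and FGF and were subcultured. The libraries thus describe cells selected by culture and not the V-SVZ itself. Whether each culture came from its own mouse was not given in the sources used here, and p-values measure the spread between these cultures.

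Complex I, or NADH:ubiquinone oxidoreductase, is the entry point of electrons into the respiratory chain and its largest complex. It is shaped like an L: a matrix arm takes electrons from NADH and passes them along iron-sulfur clusters to ubiquinone, and a membrane arm pumps protons. A conserved core does the chemistry, part of it encoded in the nucleus and part in mitochondrial DNA, and a shell of accessory subunits surrounds it. Assembly factors help build the complex and are not part of the finished enzyme. Neural stem cells are known to lean on glycolysis and to depend more on respiration as their progeny become neurons.

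Normalised totals were 29.0 M to 30.4 M in the wt/wt libraries and 45.0 M to 55.7 M in those labelled mut/mut, with mut/mut replicate 3 at the top. Tsc2 itself was higher in the mutant-labelled libraries, at 4766, 5645 and 8210.5 normalised counts against 3231, 2934 and 2794 (log2 fold change 1.02 ± 0.20, SE, limma adjusted p = 0.00101), and an exact permutation test, two-sided, gave p = 0.1, its lower limit with 3 libraries per group. With column totals set equal its fold change was 0.31 (adjusted p = 0.0811). A value for the whole gene does not isolate the floxed part, so these RNA values cannot check the genotype and the label is kept as a label. The study itself reports loss of Tsc2 in its NSC subcultures, with western blots that included tuberin from the cultures it sequenced. Of the NSC markers, the intermediate filament gene Nes was at 27523 to 43262 normalised counts in wt/wt and 15526 to 29925 in mut/mut, and the transcription factor Sox2 at 14785 to 15841 against 5035 to 8288 (log2 fold change -1.28, adjusted p = 0.000138), so both were present in every library and Sox2 was called lower. Vim, also an intermediate filament gene of these cells, was at 89859 to 104759 against 152744 to 162316 and was called higher (0.66, adjusted p = 0.00146). Markers of the oligodendrocyte lineage summed to 4854 to 12638 against 144 to 172, with all 4 tested called lower. Those of neuroblasts and neurons summed to 14143 to 15860 against 3980 to 5401, with 3 of 5 called lower and 1 higher. Microglial markers summed to 103 to 285 against 16.2 to 19.4, with all 4 tested called lower and Cx3cr1, Aif1 and Ptprc at 0 in all mut/mut libraries. Mural markers summed to 135 to 219 against 5462 to 7660, with 2 of the 3 tested called higher. Ependymal markers summed to 647 to 992 against 5766 to 8405, almost all of it Foxj1, with Ccdc153 not called and Tmem212 at 0 in all mut/mut libraries. Endothelial markers summed to 31.9 to 43.5 against 35.1 to 53.9, with 1 of the 2 tested called higher. The part of these other cell types in the complex I values was not tested, and in bulk RNA fewer cells of a type and less RNA per cell cannot be told apart.

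Most complex I transcripts were more abundant in the libraries labelled mut/mut, and more subunits were called higher than lower with values as deposited, with column totals set equal and with a trend in GC content and length removed. As deposited, of 38 structural subunits 30 rose, 2 fell (Ndufs1 and Ndufa5) and 6 were not called. Of 8 assembly factors, 6 rose, none fell and 2 were not called. These counts have to be read against a transcriptome in which 75.5% of the 13964 genes tested were called (limma, adjusted p under 0.05), 36.8% higher and 38.7% lower. The share of called subunits, 84.2%, and that of assembly factors, 75%, lay near this background. The direction did not: 78.9% of the subunits and 75% of the assembly factors were called higher. The median log2 fold change was 1.21 over the subunits and 0.81 over the assembly factors, beside -0.07 over all genes tested. Groups did not overlap for 33 subunits and 6 assembly factors, against 80.6% of all genes tested. The study states a DESeq2 adjusted p under 1e-05 and a fold threshold, read here as a log2 fold change above 1 in size. Its wording of the latter allows other readings. With these thresholds on the limma values, 6 subunits (Ndufa10, Ndufa11, Ndufab1, Ndufb2, Ndufb4 and Ndufs8) and Ndufaf8 passed, all higher, beside 4.6% of genes higher. These passes depended on the setting. No subunit passed without wt/wt replicate 1, wt/wt replicate 2, wt/wt replicate 3, mut/mut replicate 1 or mut/mut replicate 2. Without wt/wt replicate 1, none of the 13964 genes tested passed either. No subunit passed with totals set equal, where 9 of 14082 genes tested passed as higher and 295 as lower. Nor did any with limma run without its trend and robust options, where 6 of 13964 genes passed as higher and 261 as lower. Without mut/mut replicate 3, 13 passed. With the replicate number as a block, 22 subunits passed as higher and 1, Ndufs1, as lower, beside 2576 and 3182 of the 13964 genes tested.

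**Figure D1:**
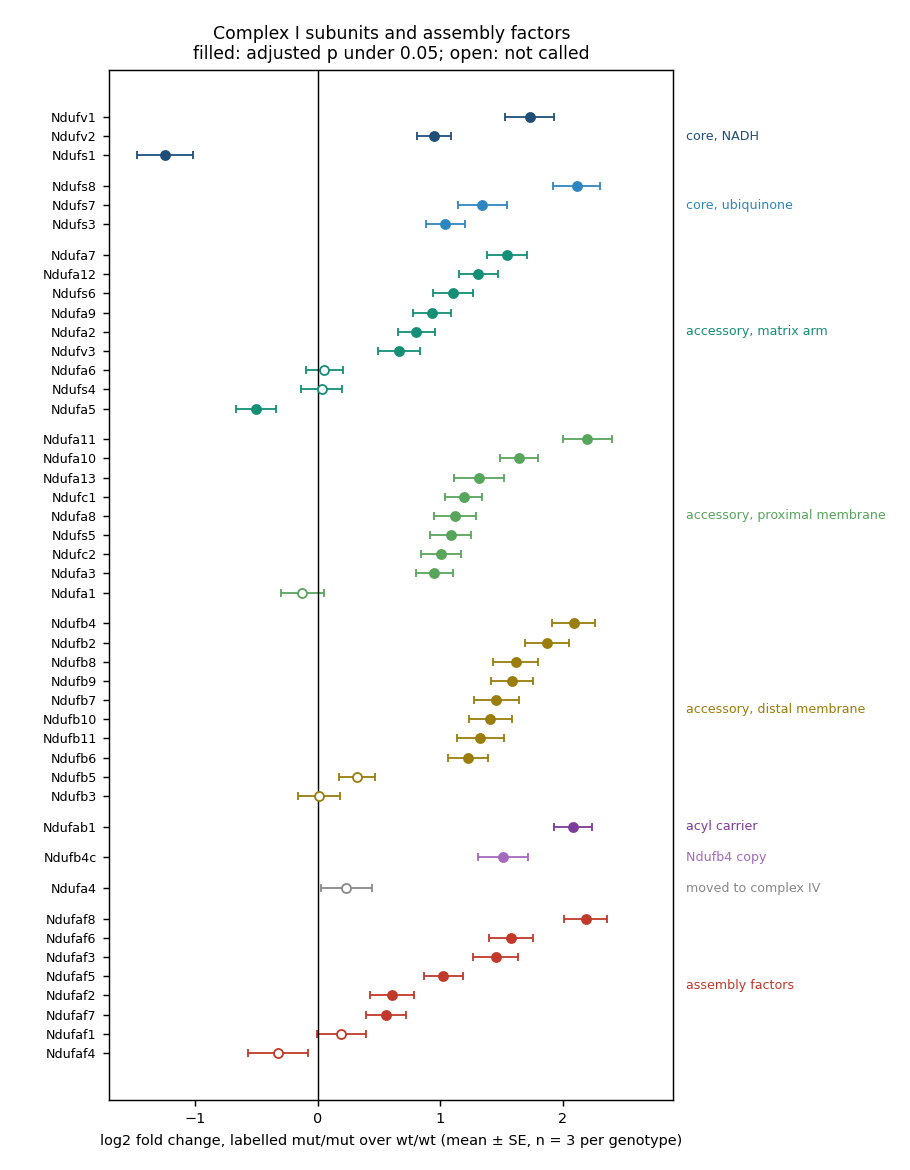
Log2 fold change of complex I genes, libraries labelled mut/mut over wt/wt, with its standard error (bars) and 3 libraries per genotype, grouped by the place of the product in the complex. Filled points passed an adjusted p of 0.05 and open points did not, and most genes lie to the right of 0, on which side Ndufs3, Ndufs6, Ndufa2, Ndufa6, Ndufa8 and Ndufv3 did not stay once the GC content and length trend was removed.

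Among the core subunits, the module that oxidizes NADH was split. Ndufv1, which carries the flavin that takes electrons from NADH, had 6334, 5305 and 5707 normalised counts in wt/wt and 16346, 16438 and 25898 in mut/mut, a log2 fold change of 1.73 ± 0.20 (SE, adjusted p = 2.41e-05). Ndufv2, its iron-sulfur partner, had 5091, 4921 and 5269 against 9618, 10186 and 9742 (0.95 ± 0.14, adjusted p = 0.000117). Both rose without overlap between the groups, and Ndufv2 was the steadier of the pair, since mut/mut replicate 3 set the top of the Ndufv1 values and not of the Ndufv2 values. Ndufs1 (chr1:63143596-63176833, minus strand, protein coding), the largest subunit and the holder of several of the iron-sulfur clusters in this module, went the other way. It had 5676, 4477 and 4903 normalised counts in wt/wt against 2745, 2345 and 1463 in mut/mut. All 3 mutant values lay under all 3 control values, and Ndufs1 had a log2 fold change of -1.24 ± 0.23 (adjusted p = 0.000592). The call held when any 1 library was left out, with adjusted p of at most 0.00575.

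In the ubiquinone-reducing module Ndufs3, Ndufs7 and Ndufs8 rose, although with the GC content and length trend removed Ndufs3 was at -0.053 and Ndufs7 at 0.027, neither called. Ndufs8, which holds a pair of iron-sulfur clusters on the way to ubiquinone, had 3931, 3554 and 4039 normalised counts in wt/wt against 14717, 14049.7 and 22095 in mut/mut (log2 fold change 2.11 ± 0.19, adjusted p = 5.81e-06). Ndufs7, which holds the last cluster before ubiquinone, had 4518, 5025 and 5389.5 against 11702.5, 10062 and 16969.9 (1.34 ± 0.20, adjusted p = 0.000143). Ndufs3, at the joint between the module and its neighbours, had 4708, 4137 and 4522 against 8443, 8419 and 10787 (1.04 ± 0.16, adjusted p = 0.000167). In Ndufs3, Ndufs7 and Ndufs8 alike, mut/mut replicate 3 was the highest library and the other mutants still lay above every control.

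**Figure D2:**
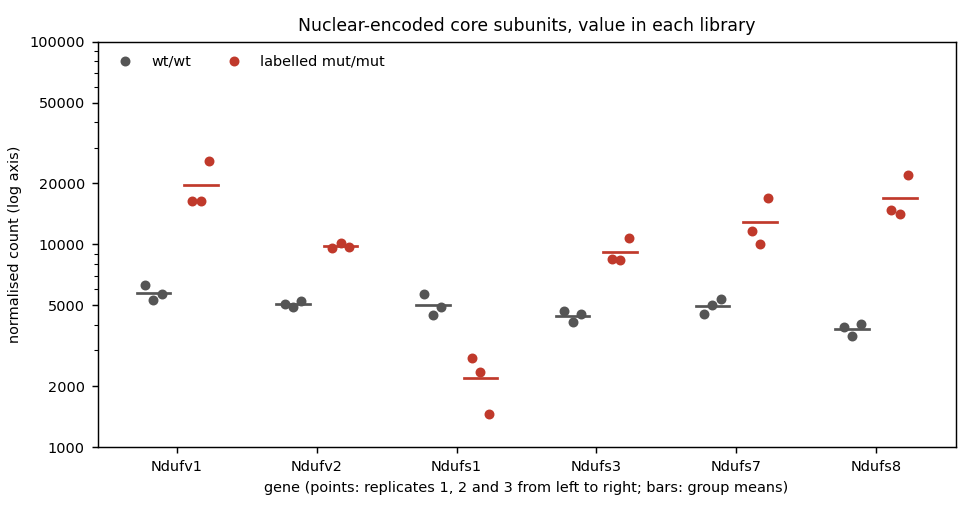
Normalised count (log axis) of 6 nuclear-encoded core subunits in each library, with points for replicates 1, 2 and 3 from left to right and bars for group means, wt/wt in grey and labelled mut/mut in red. 5 genes are higher in all 3 mutant libraries (Ndufs3 not once the GC content and length trend was removed, at -0.053), while Ndufs1 falls from a mean of 5019 to 2184.

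Levels compare between genes only per length, so Ndufs1 and Ndufv1 were also expressed as normalised counts per kilobase of the annotated transcript. On this scale Ndufs1 was at 1886 ± 228 (SD, n = 3) in wt/wt and 821 ± 246 (SD, n = 3) in mut/mut. Ndufv1, which sits in the same module with 1 copy of each in the enzyme, was at 3481 ± 312 and 11776 ± 3304. The ratio of Ndufv1 to Ndufs1 normalised counts was 1.12, 1.18 and 1.16 in the controls and 5.96, 7.01 and 17.7 in the mutants. The ratio of Ndufv1 to Ndufv2 was 1.24, 1.08 and 1.08 in the controls and 1.70, 1.61 and 2.66 in the mutants. With the GC content and length trend removed the log2 fold changes of Ndufv1, Ndufv2 and Ndufs1 were 0.72, 2.32 and -0.32, so that Ndufv2 then stood above Ndufv1. The core subunits that mitochondrial DNA encodes were not analysed here.

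Of the 9 accessory subunits of the matrix arm, 6 rose, 1 fell and 2 were not called, with a median log2 fold change of 0.81 as deposited and -0.061 with the GC content and length trend removed. Ndufa7 had the highest fold change, with 3795, 3813 and 4069 normalised counts in wt/wt and 10431, 10141 and 13832 in mut/mut (1.54 ± 0.16, adjusted p = 1.48e-05). Ndufa12, which caps the arm, rose by 1.31, zinc-binding Ndufs6 by 1.10, Ndufa9, which binds NADPH near the joint with the membrane, by 0.93, thioredoxin-like Ndufa2 by 0.81 and Ndufv3 by 0.66. Ndufa5 (chr6:24518666-24528013, minus strand) was the lowest, with 2333, 1753 and 2015 in wt/wt and 1472, 1461 and 1339.95 in mut/mut (-0.50 ± 0.16, adjusted p = 0.0166). Its groups did not overlap, but leaving out wt/wt replicate 1 or wt/wt replicate 3 ended the call, with adjusted p up to 0.0656. Ndufs4, whose loss causes Leigh syndrome in humans, was at 0.03 ± 0.17 and Ndufa6, which anchors an acyl carrier protein, at 0.05 ± 0.15, and neither was called.

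In the part of the membrane arm near the matrix arm, 8 of 9 accessory subunits rose, with a median log2 fold change of 1.12. Ndufa11, a membrane protein of the Tim17 family (chr17:56717767-56722141, plus strand), had the highest fold change of all 46 genes. It had 1979, 1571 and 1990.1 normalised counts in wt/wt and 7614, 7135 and 11025 in mut/mut (2.20 ± 0.20, adjusted p = 5.56e-06). Ndufa10, which resembles a nucleoside kinase, rose by 1.64, and Ndufa13, also known as GRIM-19, by 1.31. Ndufc1, Ndufa8, Ndufs5, Ndufc2 and Ndufa3 rose by 1.19, 1.12, 1.08, 1.01 and 0.95. Only Ndufa1, an X-linked subunit needed early in membrane arm assembly, was not called in this group, with 1620.5, 1495 and 1688 in wt/wt and 1493, 1745 and 1209.8 in mut/mut (-0.13 ± 0.18, adjusted p = 0.533). Its groups overlapped.

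In the outer part of the membrane arm, 8 of 10 accessory subunits rose, and their median of 1.43 was the highest of the 3 accessory groups as deposited. With the GC content and length trend removed it was 0.35, under the 0.60 of the group near the matrix arm. That order depended on the transcript taken: with the shortest principal transcript the medians were 0.39 and 0.18. Ndufb4 had 1636, 1737 and 1977 normalised counts in wt/wt and 7068, 6585 and 9293 in mut/mut (2.09 ± 0.17, adjusted p = 3.79e-06). Ndufb2 rose by 1.87, Ndufb8 by 1.61, Ndufb9, a relative of Ndufa6 that also anchors an acyl carrier protein, by 1.58, Ndufb7 by 1.46, Ndufb10 by 1.41, X-linked Ndufb11 by 1.33 and Ndufb6 by 1.23. Ndufb7 and Ndufb10 are disulfide-bonded proteins of the intermembrane space, as Ndufa8 and Ndufs5 are. Ndufb3 was the lowest and was not called, with 2019, 1825 and 2038 in wt/wt and 2375, 1827 and 1769 in mut/mut (0.01 ± 0.17, adjusted p = 0.956), and Ndufb5 was at 0.32 ± 0.15 (adjusted p = 0.0699).

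3 entries of the subunit list stand apart in kind. Ndufab1, the mitochondrial acyl carrier protein, serves fatty acid and lipoate synthesis besides complex I, and had 2677, 2439 and 2635 normalised counts in wt/wt against 10134, 10035 and 12868.5 in mut/mut (log2 fold change 2.08 ± 0.16, adjusted p = 2.16e-06). Ndufa4 is now placed in cytochrome c oxidase, and was not called, with 6897, 4719 and 5276 against 6095, 8423 and 5444 (0.23 ± 0.21, adjusted p = 0.322). Ndufb4c is annotated as a processed copy of Ndufb4 on chromosome 15 and shares its sequence, so its reads may belong in part to Ndufb4. It had 597, 551 and 627 against 1694, 1311 and 2170.4 (1.51 ± 0.20). Without Ndufa4 the subunit median was 1.23, and without Ndufb4c it was 1.19.

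The assembly factors spread from a log2 fold change of -0.32 to 2.18. Ndufaf8 (chr11:120098928-120100705, plus strand), a small partner that stabilizes Ndufaf5, was the highest, with 629.6, 545 and 569.5 normalised counts in wt/wt and 2554, 2292 and 3146 in mut/mut (2.18 ± 0.17, adjusted p = 2.88e-06). Ndufaf5, which hydroxylates an arginine of Ndufs7, had 596, 579.8 and 589 against 1271, 1127 and 1197 (1.02 ± 0.16, adjusted p = 0.000184). Both rose with no overlap, as did Ndufs7, the subunit that Ndufaf5 acts on, where 80.6% of all genes tested showed none. With the GC content and length trend removed, Ndufaf8 (0.92) and Ndufaf5 (1.01) were called higher, and Ndufs7 was not called at 0.027 (adjusted p = 0.838). With column totals set equal, Ndufaf8 (1.47) and Ndufs7 (0.63) were called higher, and Ndufaf5 was not called at 0.31 (adjusted p = 0.119). Ndufaf7, an arginine methyltransferase, had 918, 985 and 945 against 1309, 1609 and 1299 (0.56 ± 0.16, adjusted p = 0.00954). Ndufaf2, a paralogue of Ndufa12 that holds its place during assembly, had 743, 644 and 690.1 against 1177, 1125 and 875 (0.60 ± 0.18, adjusted p = 0.0109). These were the smallest rises of the list. They were the calls that did not hold under every omission of 1 library: the adjusted p reached 0.0572 for Ndufaf7 and 0.054 for Ndufaf2.

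Ndufaf3 and Ndufaf4, which act together on the early ubiquinone module, differed as deposited, although with the GC content and length trend removed both were called higher, at 0.40 (adjusted p = 0.0142) and 2.05. Ndufaf3 had 540.3, 667 and 638 normalised counts in wt/wt and 1557, 1493 and 2028 in mut/mut (1.45 ± 0.18, adjusted p = 4.59e-05). Ndufaf4 (chr4:24898083-24905001, plus strand) had 829, 495 and 672 against 589.8, 595 and 400.4 (-0.32 ± 0.24, adjusted p = 0.246), and its groups overlapped. Ndufaf6, which is also needed early, had 288, 289 and 319 against 943, 805 and 934 (1.58 ± 0.18, adjusted p = 2.00e-05). Ndufaf1, a factor of the membrane arm that works with Ecsit and Acad9, had 468, 468 and 507 against 602, 635 and 436 (0.19 ± 0.20, adjusted p = 0.393), and mut/mut replicate 3 was its lowest library.

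**Figure D3:**
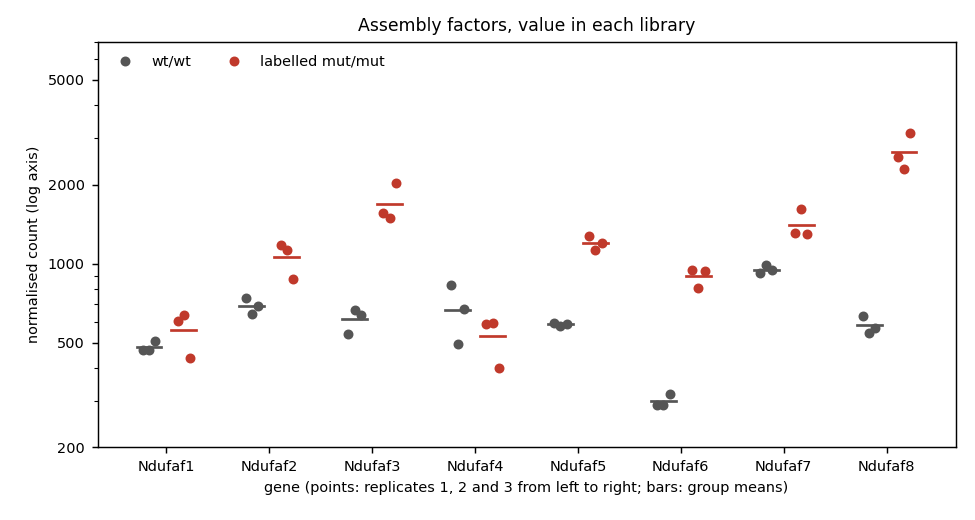
Normalised count (log axis) of the 8 assembly factors in each library, with points for replicates 1, 2 and 3 from left to right and bars for group means, wt/wt in grey and labelled mut/mut in red. The groups separate for 6 genes and overlap for Ndufaf1 and Ndufaf4.

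Assembly factors that carry other names gave a similar mix. Of 11 on the list, 8 rose, 2 fell and 1 was not called, with a median log2 fold change of 0.84. Dmac1 rose by 1.60, Ecsit by 1.57, Foxred1 by 1.52, Timmdc1 by 1.17, Dmac2 by 0.98, Nubpl, which delivers iron-sulfur clusters, by 0.84, Tmem126a by 0.81 and Tmem186 by 0.60. Tmem126b was at -1.21 ± 0.26 (adjusted p = 0.00162), with 189 ± 19.9 normalised counts in wt/wt and 82.8 ± 21.5 in mut/mut (SD, n = 3). Tmem70, which also serves ATP synthase, was at -0.70 ± 0.19 (adjusted p = 0.00671), and Acad9 at -0.12 ± 0.18 was not called. Ecsit, Acad9, Ndufaf1, Tmem126b and Tmem186 belong to 1 assembly complex of the membrane arm, and 2 of these 5 rose, 1 fell and 2 were not called as deposited. With the GC content and length trend removed, Ecsit, Acad9, Ndufaf1 and Tmem186 were called higher, and Tmem126b was not called at -0.33 (adjusted p = 0.152), nor was Tmem70 at -0.10 (adjusted p = 0.393). The list of 11 then held 9 called higher and none lower.

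Structural subunits were far more abundant than assembly factors in both genotypes. The median of the gene means per kilobase of transcript was 4209 normalised counts for 37 subunits and 459 for 8 assembly factors in wt/wt, and 10011 and 927 in mut/mut. The summed subunit counts took 0.502% ± 0.0280 of the normalised total in wt/wt and 0.718% ± 0.0325 in mut/mut (SD, n = 3), and the groups did not overlap. The assembly factors took 0.0165% ± 0.000505 and 0.0207% ± 0.00196. The ratio of the subunit sum to the assembly factor sum was 31.0, 29.4 and 30.8 in the controls and 31.9, 32.2 and 40.7 in the mutants. All 3 mutant ratios lay above all 3 control ratios, mut/mut replicate 3 by the widest margin. That library was the highest of the mutants for 30 of 38 subunits but for 2 of 8 assembly factors, and it had the lowest estimated depth (about 22.3 M reads). Without it the subunit median was 1.09, the assembly factor median 0.88 and the difference between them 0.21 in place of 0.39.

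To show what sequence precedes the genes at the ends of each list, the promoters of the highest and lowest subunit and assembly factor that have one in the RefSeq table were read, from 250 bases before to 50 bases after the start of transcription (GRCm38.p6, written along the gene's strand). Ndufs1, the lowest subunit, was not among the 33 subunits with an entry, and Ndufa5 takes its place. Capitals mark matches, on either strand, to CGCATGCG (the core of the NRF1 site), CCGGAAG (ETS factors such as GABP), AAGATGGC (YY1), TCAAGGTCA (ERR), CACGTG (E-box) or GGGCGG (SP1). The windows are chr17:56717512-56717811 (plus strand), chr6:24527641-24527940 (minus strand), chr11:120098684-120098983 (plus strand) and chr4:24897833-24898132 (plus strand). For Ndufa5 2 starts are listed, and the window used lies wholly within the gene as GENCODE places it (chr6:24518666-24528013).
Ndufa11: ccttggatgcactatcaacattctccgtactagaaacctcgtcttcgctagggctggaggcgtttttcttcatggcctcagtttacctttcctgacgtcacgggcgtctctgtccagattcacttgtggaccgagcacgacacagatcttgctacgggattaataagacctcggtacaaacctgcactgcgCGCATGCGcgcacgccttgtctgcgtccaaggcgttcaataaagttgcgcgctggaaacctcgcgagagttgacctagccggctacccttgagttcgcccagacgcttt
Ndufa5: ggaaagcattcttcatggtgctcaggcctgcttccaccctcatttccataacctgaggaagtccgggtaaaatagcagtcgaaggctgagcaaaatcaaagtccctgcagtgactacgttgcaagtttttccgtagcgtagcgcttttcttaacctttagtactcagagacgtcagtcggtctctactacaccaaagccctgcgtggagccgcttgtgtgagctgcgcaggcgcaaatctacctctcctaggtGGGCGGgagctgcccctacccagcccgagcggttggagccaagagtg
Ndufaf8: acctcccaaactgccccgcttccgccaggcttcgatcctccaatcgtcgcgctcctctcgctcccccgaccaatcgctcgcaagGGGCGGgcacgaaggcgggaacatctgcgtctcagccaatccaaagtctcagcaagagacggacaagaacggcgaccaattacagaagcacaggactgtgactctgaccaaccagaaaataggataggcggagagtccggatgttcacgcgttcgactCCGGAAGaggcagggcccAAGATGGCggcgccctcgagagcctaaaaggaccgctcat
Ndufaf4: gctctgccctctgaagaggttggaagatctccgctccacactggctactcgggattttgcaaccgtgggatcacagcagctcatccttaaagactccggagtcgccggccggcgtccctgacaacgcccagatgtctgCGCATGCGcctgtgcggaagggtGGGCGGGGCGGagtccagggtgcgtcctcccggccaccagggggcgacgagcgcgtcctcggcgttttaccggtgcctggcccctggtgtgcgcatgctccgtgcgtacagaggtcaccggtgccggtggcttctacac
The letters of the NRF1 core stand before the start in Ndufa11, which rose the most, and in Ndufaf4, which was not called. Ndufaf8 holds an ETS match before the start and a YY1 match just after it.

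Over the whole lists, the YY1 letters were found in 7 of 33 subunit promoters (21.2%; Ndufa3, Ndufa9, Ndufb8, Ndufc1, Ndufs4, Ndufs6 and Ndufs7) and in 1 of 7 assembly factor promoters, against 4.53% of 10885 promoters of tested genes and 2.88% of all 27025 in the table. The NRF1 letters were found in 2 subunits (Ndufa8 and Ndufa11) and 2 assembly factors (Ndufaf4 and Ndufaf5), against 3.88% of tested genes and 1.91% of all. The ETS letters were found in 4 subunits (12.1%) and 2 assembly factors, against 17.6% and 9.16%. SP1 letters were found in 15 subunits (45.5%) and 6 assembly factors, against 66.1% and 36.0%, the E-box in 2 subunits and no assembly factor, against 10.1% and 7.22%, and the ERR letters in none, against 0.257% and 0.403%. No motif was found in every member that rose, and a match describes the letters only.

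Neighbouring genes offer another view of the loci. 18 members, 14 subunits and 4 assembly factors, start within 1000 bases of a gene that runs the other way, and in 13 pairs both genes were called. The direction was shared in 8 pairs and opposite in 5, and the share among other genes that start so close was not computed. Ndufa7 and Rps28 (10 bases between the starts) were at 1.54 and 1.18, and Ndufs6 and Mrpl36 (29 bases) at 1.10 and 1.55. Ndufs1 and Eef1b2, an elongation factor subunit, start 8 bases apart and had log2 fold changes of -1.24 and 1.81. Ndufb9 and Tatdn1 (18 bases) were at 1.58 and -1.82, and Ndufaf5 and Esf1 (85 bases) at 1.02 and -3.96. Exons of 13 members, Ndufs1 among them, overlap another gene of the table, and since the strand setting of the counting was not given in the sources used here, reads of such pairs cannot be told apart.

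Fold changes in these libraries followed the base composition of the transcript across the genome. Over 13239 tested genes with an annotated transcript, the Spearman correlation of the log2 fold change with GC content was 0.588 and with length -0.442, computed across genes, which share libraries and are not independent. The median log2 fold change ran from -2.52 in the lowest to 0.94 in the highest of 10 equal bins of GC content. Transcripts of the subunits were short, with a median length of 908 bases, and those of the assembly factors had a median of 1308.5, against 3095 over all genes. Median GC content was 52.1% for subunits, 47.3% for assembly factors and 50.7% for all. Within the lists the correlation with GC content was 0.482 over 37 subunits and 0.905 over 8 assembly factors.

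**Figure D4:**
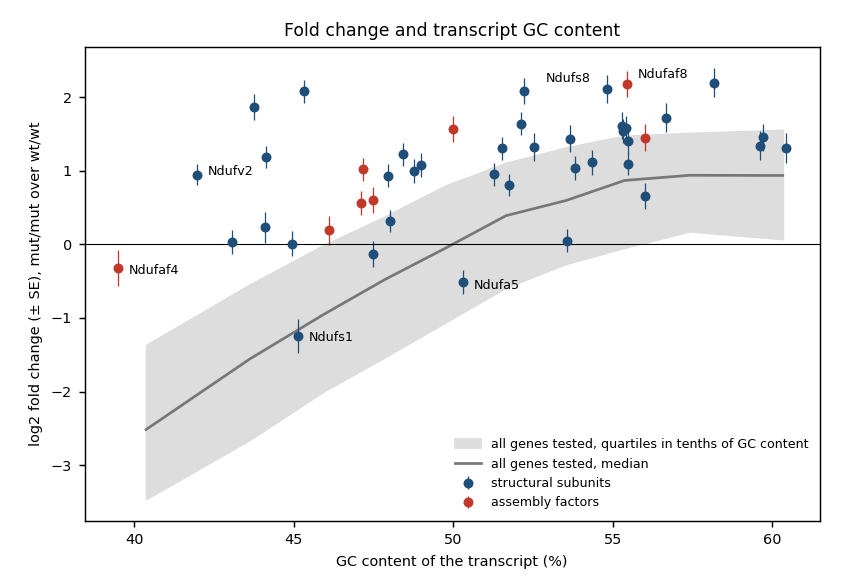
Log2 fold change (with SE bars) of subunits (blue) and assembly factors (red) against the GC content of the transcript in percent, over the median (line) and quartiles (band) of all tested genes in 10 equal bins of GC content. 33 of 37 subunits and 8 of 8 assembly factors lie above the median of genes in their own bin, and Ndufs1 lies just under that line.

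Against genes of like GC content, most members still stood high. These bins do not match length, and subunit transcripts were shorter than those of all genes (median 908 against 3095 bases). 33 of 37 subunits lay above the median of their bin and 22 above its upper quartile, and the exceptions were Ndufa5, Ndufa6, Ndufs1 and Ndufv3. All 8 assembly factors lay above the median and 7 above the upper quartile. When a smooth trend in these properties of the transcript was taken out of every library, 22 of 37 subunits were called higher and 4 lower, beside 70.8% of 13239 genes called, 41.4% higher and 29.3% lower, and the median log2 fold change was 0.37 over subunits and 0.87 over assembly factors (0.16 over all genes). All 8 assembly factors were then called higher. The order of the lists was thus reversed: the subunit median exceeded that of the assembly factors by 0.39 as deposited and fell short of it with a difference of -0.50 after removal.

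Single members moved a good deal under this setting. Ndufaf4, with the lowest GC content of all members (39.5%), went from -0.32 to 2.05 (adjusted p = 8.77e-06). Ndufs1 went from -1.24 to -0.32 (adjusted p = 0.0385) and Ndufa5 from -0.50 to -1.18 (adjusted p = 1.99e-05), so both were still called lower. Ndufa6, at 0.05 as deposited, was called lower at -1.03, and Ndufv3 went from 0.66 to -0.35. Ndufs4 went from 0.03 to 1.15 and Ndufv2 from 0.95 to 2.32. Of the 30 subunits that rose, 19 were also called higher here, and Ndufs3, Ndufs7, Ndufa2, Ndufa3, Ndufa8, Ndufa13, Ndufb7, Ndufb10 and Ndufs6 were not called, Ndufv3 was called lower and Ndufb4c, a processed copy, had no protein-coding transcript to use. The values of Ndufb2 (3.55) and Ndufc1 (1.88) depend on which transcript is taken, and were 0.70 and 0.36 with the shortest principal transcript. Ndufs5 went from 0.64 to 0.0068 (adjusted p = 0.965) and lost its call with that transcript, as did Ndufv3 (adjusted p = 0.0613), so that 18 of the 30 were then called higher and 3 subunits lower.

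**Figure D5:**
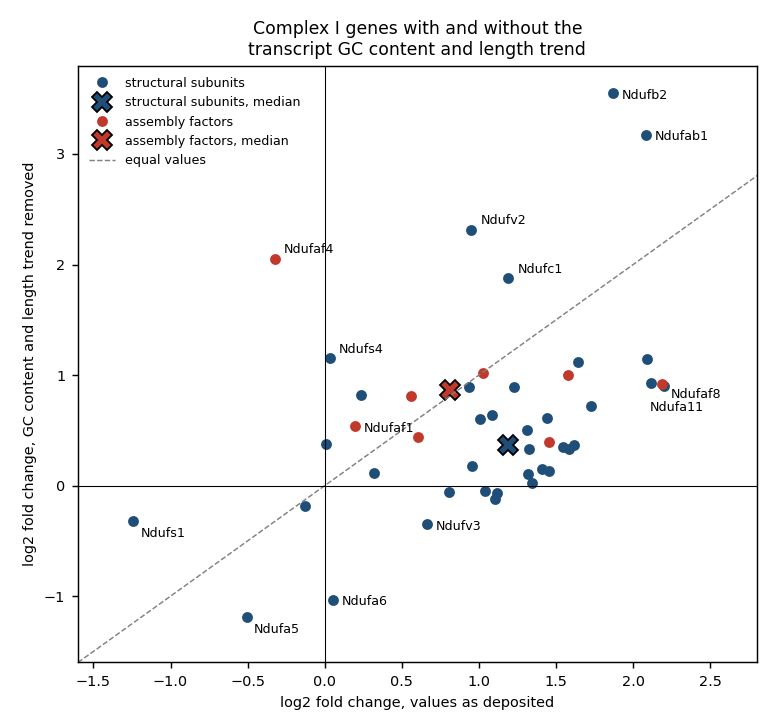
Log2 fold change of each subunit (blue) and assembly factor (red) with values as deposited (horizontal) and with the GC content and length trend removed (vertical), with crosses for list medians and a dashed line for equal values. The subunit cross drops from 1.19 over the 37 genes shown to 0.37, while the assembly factor cross moves from 0.81 to 0.87.

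Scaling mattered in another way. With column totals set equal, the median of all genes moved to -0.79, 20.4% of genes were called higher and 54.9% lower. Under this scaling 23 subunits were called higher and 7 lower (Ndufa1, Ndufa5, Ndufa6, Ndufb3, Ndufb5, Ndufs1 and Ndufs4), with a median of 0.49, and 3 assembly factors (Ndufaf3, Ndufaf6 and Ndufaf8) were called higher and 1, Ndufaf4, lower, with a median of 0.10. Relative to the median of all genes, the subunit median was 1.28 higher as deposited and 1.29 higher here, and that of the assembly factors 0.88 and 0.89 higher. As deposited, with totals set equal and with the GC content and length trend removed, Ndufa11, Ndufs8, Ndufb4, Ndufab1 and Ndufaf8 were among those called higher each time, and Ndufs1 and Ndufa5 were called lower each time.

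Nuclear-encoded factors linked to the expression of respiratory genes were called in both directions. The list includes Tfam, Tfb1m, Tfb2m and Polrmt, whose products act in mitochondria. Of 13 listed, 5 rose, 7 fell and 1 was not called, with a median log2 fold change of -0.74, and the share called higher (38.5%) was near the 36.8% of all genes tested. Pprc1, a coactivator, rose by 1.60, the nuclear receptor Esrra by 1.45, the mitochondrial RNA polymerase Polrmt by 1.43, Tfb1m by 1.03 and Nrf1 by 0.93. Gabpa, the DNA-binding subunit of GABP, was at 2378, 1921 and 1947 normalised counts in wt/wt and 282, 251 and 149.6 in mut/mut (-3.23 ± 0.25, adjusted p = 2.23e-06). Ppargc1a, the coactivator PGC-1alpha, had 1643, 1315 and 1380.5 against 239, 186 and 113 (-3.06 ± 0.27, adjusted p = 4.65e-06). Gabpb2 was at -2.52, Tfb2m at -1.58, Yy1 at -0.95, Ppargc1b at -0.87 and Tfam, which packages mitochondrial DNA, at -0.74, all called lower, while Gabpb1 at -0.06 ± 0.20 was not called. Once the GC content and length trend was removed these 13 genes had a median of 0.33 and Tfam was called higher at 0.63. Under that setting Gabpa, Ppargc1a, Gabpb2 and Ppargc1b were still called lower at -0.87, -0.48, -0.57 and -1.37, and Yy1 at -0.27 (adjusted p = 0.109) and Tfb2m at -0.11 (adjusted p = 0.778) were not called.

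Ndufa4l2, the paralogue that the rule leaves out and a known target of hypoxia signalling, had 269, 796 and 994 normalised counts in wt/wt and 19.9, 15.7 and 28.1 in mut/mut (-4.79 ± 0.44, adjusted p = 6.75e-06), the reverse of most members.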

How the data were processed

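RNA of 6 primary V-SVZ NSC cultures (3 Tsc2 wt/wt, 3 labelled Tsc2 mut/mut) was measured. Per the study's methods and the submitters' processing notes, the authors trimmed paired reads from poly(A) libraries, aligned them to mm10 with STAR and normalised gene counts with DESeq2. Which gene counter, annotation release and strand setting they used was not given in the sources used here. The table deposited by the authors holds a normalised signal for each gene name and library, called normalised counts here, in 1 table of 24972 names, 6503 of them at 0 throughout. They are not raw counts: 57.3% to 82.6% of low values lay within 0.1 of a whole step (chance 20%), and whole reads could not be had from them, so a count test was not used. Depths estimated from these steps were 22.3 M to 56.5 M reads. 1 control column, used as wt/wt replicate 2, has 1 digit fewer in its name than the label, which touches only its number.

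Values as deposited were tested as log2(value + 1) for the 13964 genes whose mean reached 10, with limma 3.58.1 in R 4.3.3 (two-sided, genotype only, trend and robust settings). The p-values were adjusted over all genes by the Benjamini-Hochberg method and genes were called at an adjusted p under 0.05. Fold changes are mutant over control on that scale, which understates changes of low genes, with standard errors. Lists were described by counts and medians, with no test over members. Transcript GC content and length came from the longest principal protein-coding transcript of GENCODE M21 (94.8% of tested genes, 45 of 46 members), read with python 3.11.15, and their smooth trend was removed with mgcv 1.9.3. Positions are GRCm38 (mm10). Promoters were those of the RefSeq table (GRCm38.p6), found for 33 subunits and 7 assembly factors, and the NRF1 letters were shortened to their core after matches to a longer form had been seen. The fit was checked on simulated data.

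Members, role lists and settings were chosen with earlier results of these data known. Values in every library are given for core subunits (1 is not reported here), all assembly factors, the highest and lowest member of each accessory group and members that fell, and for Ndufab1, Ndufb4c and Ndufa4. Beyond the members, called genes of the lists of other assembly factors and of nuclear-encoded factors linked to respiratory genes are named. The neighbours Rps28, Mrpl36, Eef1b2, Tatdn1 and Esf1 were chosen after their values were seen. Alternatives were equal column totals, size factors, pseudocounts of 0.5 and 5, no filter and a mean of at least 100, removal of the composition trend, a replicate block, limma without trend and robust settings, thresholds stated by the study, and omission of each library. The shortest principal transcript and the list without Ndufb4c were added after seeing the data.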

Additional observations from a re-analysis of the deposited data

How the results depend on the processing

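The 30 subunits and 6 assembly factors called higher were the same in number with recomputed size factors, either pseudocount, either filter and limma without trend and robust settings. Omission of 1 library gave 30 to 31 subunits higher, 1 to 2 lower (1 without wt/wt replicate 1 or wt/wt replicate 3, where the Ndufa5 call was lost), 5 to 7 assembly factors called, subunit medians of 1.09 to 1.27 and a difference between the list medians of 0.21 to 0.46, with 0.21 without mut/mut replicate 3. At the thresholds stated by the study, as read here (adjusted p under 1e-05, log2 fold change above 1 in size), 1866 genes, 6 subunits and 1 assembly factor (Ndufaf8) passed. The count of subunits ranged from 0 to 13 over the omissions, and without wt/wt replicate 1 no gene passed. With totals set equal 7 subunits were lower, the medians were 0.49 and 0.10, and Tsc2 was at 0.31 (adjusted p = 0.0811). With the GC content and length trend removed 4 subunits were lower, the subunit median was 0.37 (0.36 with the shortest transcript), the assembly factor median was 0.87 (0.95 with the shortest transcript), and the difference was reversed at -0.50 (-0.59). The cause was not tested.

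Signs of single genes that were called under at least 1 of the settings compared turned as follows. With totals set equal, Ndufa6 was at -0.66, Ndufb3 at -0.70, Ndufb5 at -0.39, Ndufs4 at -0.68, Ndufv3 at -0.050, Ndufaf2 at -0.11, Ndufaf7 at -0.15 and Tmem186 at -0.11. Ndufaf1 (-0.52) and Ndufa4 (-0.48) also turned there, with no call in either setting. With the composition trend removed (shortest transcript in parentheses), Ndufa2 was at -0.061 (-0.072), Ndufa6 at -1.03 (-1.05), Ndufa8 at -0.064 (-0.0050), Ndufs3 at -0.053, Ndufs6 at -0.12 (-0.17), Ndufv3 at -0.35 (-0.26), Ndufaf4 at 2.05 (2.15), Acad9 at 0.51 (0.61), Gabpb1 at 0.94 (1.16) and Tfam at 0.63 (0.72), and only with the shortest transcript Tmem70 at 0.032 and Tfb2m at 0.014.

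Whether replicate numbers pair the cultures cannot be told from 3 libraries per group. Deviations of same-numbered libraries from their group means correlated at 0.112, -0.0037 and 0.0712. The same-numbered mut/mut library was the best match for wt/wt replicates 1 and 3, while wt/wt replicate 2 correlated best with mut/mut replicate 3. With the replicate number as a block 10576 genes, 32 subunits and 6 assembly factors were called. With the block and the composition trend removed 4 subunits were lower, the subunit median was 0.37 and the difference -0.50. With 3 cultures per genotype, groups of unknown animal origin, estimated depths only and a trend that reaches most genes, fold changes here are relative to other genes of the same library, and the composition trend and the genotype cannot be told apart.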
